A study of Mus musculus with 4 samples.

Results

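The genes described here are 10 members of the BCL2 family, taken by their symbols from the read counts of all 4 libraries of the series: Bcl2, Bcl2l1, Mcl1, Bcl2l11, Bmf, Bbc3, Pmaip1, Bid, Bax and Bak1. All 10 were among the 16613 symbols listed, and all 10 passed the filter on low counts that left 12123 genes for testing. RNA-seq was run on GFP+ cells, marked by green fluorescent protein, from the bone marrow of recipient mice (C57BL/6). The recipients had been given N-myc-transduced marrow cells positive for B220, a surface marker of the B lineage, and the labels describe what was collected as B-ALL cells induced by N-myc, a model of acute lymphoblastic leukaemia. The donor cells were Anp32b-/- (knockout, KO, 2 libraries) or Anp32b+/+ (wild type, WT, 2 libraries), and N-myc was introduced in both genotypes. The labels give no age, no sex, no account of how the Anp32b allele was made, and nothing that says the libraries of a genotype came from separate animals. The p-values below therefore measure the spread between these libraries, which may be technical.

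The BCL2 family controls whether the outer membrane of mitochondria stays intact, the step at which most lymphoid cells become committed to apoptosis. Survival members such as BCL-2, BCL-XL and MCL-1 hold the pore-forming effectors BAX and BAK in check, and BH3-only members, which share a single short helix with the rest of the family, bind the survival members or activate the effectors directly. Developing B cells are known to depend on this balance: MCL-1 and BCL-XL support precursor stages, BCL-2 supports mature B cells, and BIM removes cells that fail selection or lose cytokine support. MYC family oncogenes are known to prime B cells for apoptosis, and loss of BIM or PUMA speeds up MYC-driven lymphoma in mice.

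The libraries were of even size, from 19581575 to 19605800 estimated reads for KO and from 19692505 to 19758671 for WT. Levels are given as CPM, read counts scaled to library size with TMM factors. Anp32b itself was at 74.3 and 70.6 CPM in the KO libraries, against 773 and 853 CPM in the WT libraries. Spi1, which encodes PU.1, the factor named in the series title, was at 64.6 and 68.2 CPM in KO against 68.3 and 62.3 CPM in WT. Mycn, the gene introduced, was at 944 and 921 CPM in KO against 1012 and 857 CPM in WT, and gene counts cannot tell the introduced copy from the endogenous one. All 8 B lineage markers examined were read in every library, with Cd79a at 1899 ± 41.2 CPM in KO and 1891 ± 29.7 CPM in WT (SD, n = 2 each). Of the 8, 4 were called lower, led by Ebf1, Vpreb1 and Blnk, where 12.6% of all tested genes were called lower. Neutrophil markers moved with genotype: 10 of 10 were called lower in KO, led by Ngp, Ltf and Lcn2, with a summed level of 115 to 116 CPM in KO and 604 to 621 CPM in WT and none of them at 0. Monocyte and macrophage markers summed to 35.3 to 37.5 CPM in KO and 85.7 to 90.1 CPM in WT, with 3 of 8 called lower (Lyz2, Ly6c2 and Csf1r). T cell markers summed to 15.3 to 16.2 CPM in KO and 21.3 to 24.04 CPM in WT, with 2 of 3 tested called lower (Cd4 and Lck). Cd3e, Cd3d and Cd3g were too low to test. Cd3e had 0 reads in both KO libraries against 2 and 4 reads in WT. Cd3d and Cd3g had 0 to 3 reads in KO and 1 to 7 reads in WT. NK markers (2 of 3 tested lower, Klrb1c and Nkg7), plasma cell markers (3 of 5 lower, Jchain at 9.39 ± 0.22 CPM in KO and 38.5 ± 7.02 CPM in WT, Prdm1 and Mzb1, and Xbp1 higher), erythroid markers (0 of 7 called by edgeR, DESeq2 or limma-voom, 2 higher at an unadjusted p under 0.05) and the 1 tested megakaryocyte marker (0 called by these tools, 0 at an unadjusted p under 0.05) completed the lists. The 10 neutrophil calls held without any 1 library. The numbers lower were 2 B lineage, 1 T cell and 1 NK marker without KO replicate 1, the same with 1 plasma cell marker without KO replicate 2, and 1 T cell and 1 NK marker without WT replicate 2, while Xbp1 was not called without KO replicate 1 or without KO replicate 2. The 4 Y-linked genes were lower in KO as well, with sums of 41.7 to 42.5 CPM in KO and 156 to 172 CPM in WT. In bulk RNA, fewer cells of a type and less RNA per cell cannot be told apart, and the part of these other cell types or of sex in the members' differences was not tested.

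The members did not move together. Of the 10 members, edgeR's quasi-likelihood test called 3 lower in KO (Bcl2l1, Bmf and Bbc3) and 2 higher (Bak1 and Bid) at a Benjamini-Hochberg adjusted p under 0.05, and 5 were not called. Among all 12123 tested genes, 23.6% were called, 12.6% lower and 10.9% higher in KO, so calls were common in this comparison. Without KO replicate 1, 1 member and 588 of all genes were higher and 867 of all genes lower, without KO replicate 2 these were 0, 372 and 579, and without WT replicate 1, 5 members were lower. The neutrophil, monocyte and Y-linked levels given above were lower in the same KO libraries as Bcl2l1, Bmf and Bbc3. Every gene lower in both KO libraries shares this, so it cannot show whether they are related, which was not tested. The median log2 fold change of the members was -0.10, against 0.0021 over all tested genes. The libraries of the genotypes did not overlap for 9 members, with KO below WT in 6 and above it in 3. Non-overlap was found for 60.6% of all tested genes, with KO below in 30.5% and above in 30.1%.

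**Figure D1:**
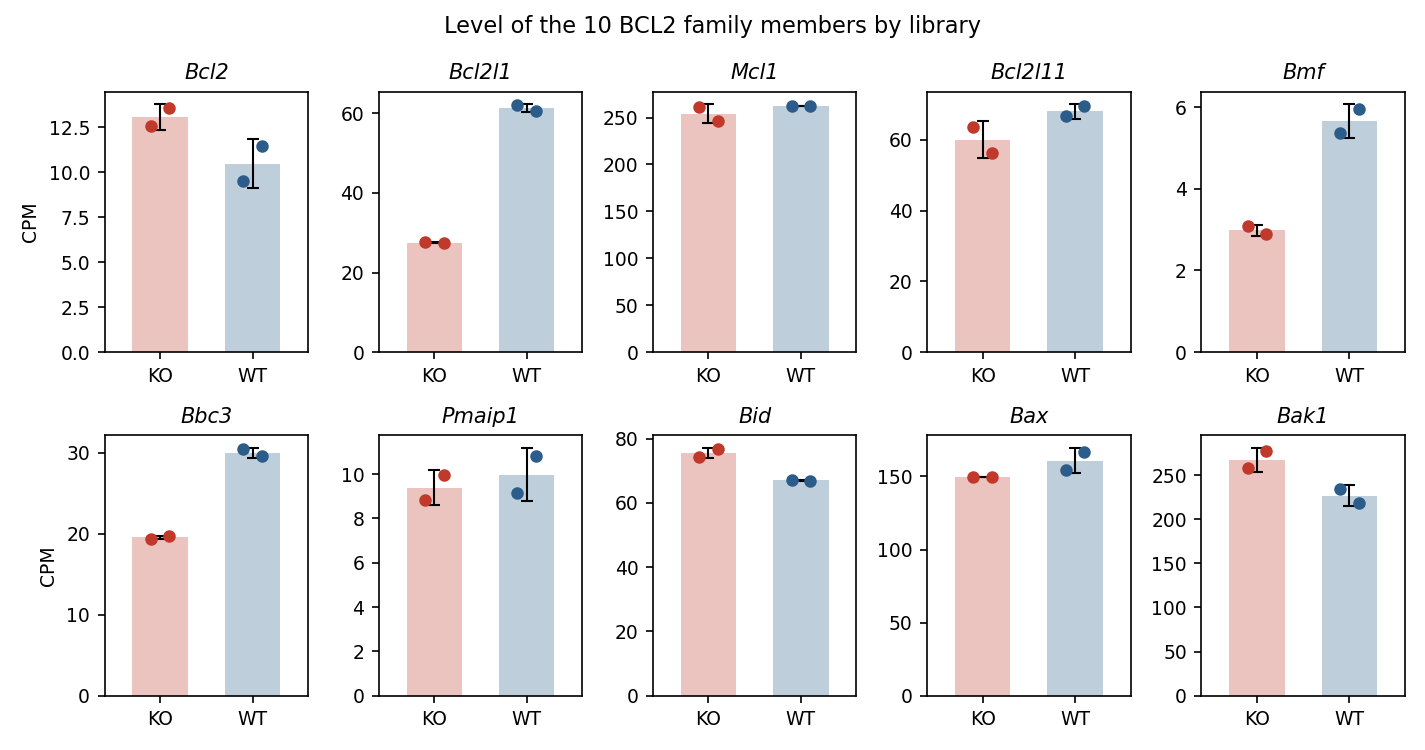
Level of each member in CPM, with KO to the left of WT; points are libraries, bars the mean and error bars the SD (n = 2 each). Bcl2l1, Bbc3 and Bmf lie clearly lower in both KO libraries, Bid and Bak1 slightly higher, and the Pmaip1 libraries overlap.

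Among the survival members, Bcl2l1 fell, Mcl1 was nearly level, and Bcl2 was higher in both KO libraries without passing the test. The estimated fall of Bcl2l1 was the largest of all members, but its 95% interval overlapped that of Bmf. Bcl2l1 (chromosome 2, 152758732 to 152833803, minus strand, GRCm38), which encodes BCL-XL and, by alternative splicing, the shorter death-promoting BCL-XS, was at 27.6 and 27.5 CPM in the KO libraries, against 62.0 and 60.7 CPM in the WT libraries. The KO libraries lay far below both WT libraries, and the gap between libraries of a genotype was small. The level in KO was 44.9% of that in WT (log2 fold change -1.16, SE 0.07, 95% interval -1.30 to -1.02, edgeR adjusted p = 1.57e-08). Only 3.43% of all tested genes had a larger fall, and Bcl2l1 was called under all 14 alternative settings. Counts per gene do not separate the isoforms of its 8 annotated coding transcripts.

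Mcl1 (chromosome 3, 95656944 to 95663179), whose product is a short-lived survival protein on which lymphoid and myeloid cells depend, was at 261 and 247 CPM in KO against 262.5 and 262.2 CPM in WT. One KO library was level with WT and the other slightly below. Its log2 fold change was -0.05 with a 95% interval of -0.16 to 0.06 (edgeR adjusted p = 0.566), so a change within that interval cannot be told from none. Bcl2 (chromosome 1, 106538176 to 106714290), the founding survival gene, was at 12.6 and 13.6 CPM in KO against 9.53 and 11.4 CPM in WT. The KO libraries were the higher pair, but the WT libraries lay apart by nearly as much as the genotypes did. The difference did not pass the test (log2 fold change 0.32, SE 0.12, 95% interval 0.07 to 0.56, edgeR adjusted p = 0.0607), and it depended on the WT libraries, with 0.19 without WT replicate 1 (edgeR adjusted p = 0.268) and 0.45 without WT replicate 2 (adjusted p = 0.0158). It passed in the fit with a replicate block (0.32, edgeR adjusted p = 0.0262), while DESeq2 gave an adjusted p of 0.418. All 4 Bcl2 values are fractional, and 558 bases of its exons are shared with an antisense transcript, D630008O14Rik.

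The RefSeq start regions of Bcl2l1, Bbc3 and Bmf are printed because these 3 members fell, together with Bcl2l11 for its shared FOXO motif and Bak1, the effector that rose, for its PU.1 motif. Each runs 5′ to 3′ on the strand of the gene from 250 bases before a RefSeq start to 50 bases after it (build GRCm38.p6), and capitals mark the motifs described further on. They lie at chr2:152830668-152830967 (Bcl2l1, minus strand, 1 of 3 listed starts, no motif), chr7:16310011-16310310 (Bbc3, plus strand, 1 of 3), chr2:118549637-118549936 (Bmf, minus strand, 1 of 3, no motif), chr2:128125788-128126087 (Bcl2l11, plus strand, 1 of 2) and chr17:27028578-27028877 (Bak1, minus strand, the only listed start).
Bcl2l1: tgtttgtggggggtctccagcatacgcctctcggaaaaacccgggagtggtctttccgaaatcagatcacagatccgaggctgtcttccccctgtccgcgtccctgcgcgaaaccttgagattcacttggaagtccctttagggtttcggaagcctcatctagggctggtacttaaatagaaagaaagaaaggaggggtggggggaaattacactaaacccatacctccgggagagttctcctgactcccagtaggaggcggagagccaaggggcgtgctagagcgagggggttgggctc
Bbc3: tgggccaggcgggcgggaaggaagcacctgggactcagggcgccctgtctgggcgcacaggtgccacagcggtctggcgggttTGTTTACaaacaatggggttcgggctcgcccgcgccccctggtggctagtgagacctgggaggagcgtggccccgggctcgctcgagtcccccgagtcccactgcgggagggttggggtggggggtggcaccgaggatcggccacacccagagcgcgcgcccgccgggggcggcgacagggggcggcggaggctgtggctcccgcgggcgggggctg
Bmf: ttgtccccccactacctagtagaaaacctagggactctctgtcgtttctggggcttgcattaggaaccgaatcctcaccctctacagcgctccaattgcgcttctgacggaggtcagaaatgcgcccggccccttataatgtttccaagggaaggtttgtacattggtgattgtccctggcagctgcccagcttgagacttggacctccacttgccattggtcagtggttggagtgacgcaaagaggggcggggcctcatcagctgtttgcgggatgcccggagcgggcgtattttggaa
Bcl2l11: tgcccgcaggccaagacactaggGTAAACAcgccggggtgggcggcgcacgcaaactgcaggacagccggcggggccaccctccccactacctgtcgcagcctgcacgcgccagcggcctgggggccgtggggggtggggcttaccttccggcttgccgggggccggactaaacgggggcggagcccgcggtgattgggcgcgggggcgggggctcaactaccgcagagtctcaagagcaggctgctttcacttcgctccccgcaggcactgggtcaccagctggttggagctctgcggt
Bak1: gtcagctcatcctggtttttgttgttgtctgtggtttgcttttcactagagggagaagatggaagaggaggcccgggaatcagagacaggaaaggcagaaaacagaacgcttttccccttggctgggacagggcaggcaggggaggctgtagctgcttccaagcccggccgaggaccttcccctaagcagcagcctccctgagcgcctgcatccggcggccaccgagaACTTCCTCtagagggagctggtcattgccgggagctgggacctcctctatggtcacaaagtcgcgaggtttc

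Among the BH3-only members, Bbc3 and Bmf fell, Bid rose slightly, and Bcl2l11 and Pmaip1 were not called. Bbc3 (chromosome 7, 16308398 to 16318334) encodes PUMA, a potent BH3-only protein best known as a target of p53 and also of FOXO factors. It was at 19.4 and 19.7 CPM in KO against 30.4 and 29.5 CPM in WT. The genotypes were well separated, and the libraries of each agree within a few percent. The KO level was 65.2% of WT (log2 fold change -0.62, SE 0.08, 95% interval -0.78 to -0.45, edgeR adjusted p = 3.67e-05), and the call held under all 14 alternative settings.

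Bmf (chromosome 2, 118528757 to 118549686) encodes a BH3-only protein that is tethered to the cytoskeleton through a dynein light chain. It was the least abundant member by reads, with 60 and 56 reads in the KO libraries against 107 and 118 reads in the WT libraries, or 3.08 and 2.89 CPM against 5.37 and 5.95 CPM. Both KO libraries lay below both WT libraries, at a low level throughout. The KO level was 52.8% of WT with a wide interval (log2 fold change -0.92, SE 0.17, 95% interval -1.29 to -0.55, edgeR adjusted p = 0.00141). The call ended without KO replicate 2 (-0.88, edgeR adjusted p = 0.0520).

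Bcl2l11 (chromosome 2, 128126038 to 128162547) encodes BIM, which binds all survival members and is the main BH3-only killer of lymphocytes deprived of cytokines. It was at 63.7 and 56.3 CPM in KO against 66.6 and 69.4 CPM in WT. The KO libraries were the lower pair, but they differed from each other by about as much as the genotypes did. The difference was not called (log2 fold change -0.18, SE 0.07, 95% interval -0.33 to -0.04, edgeR adjusted p = 0.0688). It passed in 5 of 14 alternative settings, among them without WT replicate 1 (-0.21, edgeR adjusted p = 0.0262), and was -0.094 without KO replicate 2 (adjusted p = 0.591). Pmaip1 encodes NOXA, which acts mainly by binding MCL-1. It was at 8.82 and 9.96 CPM in KO against 9.13 and 10.8 CPM in WT, and the genotypes overlapped (log2 fold change -0.09, SE 0.13, 95% interval -0.36 to 0.18, edgeR adjusted p = 0.671). Its sign turned without WT replicate 2 (0.037).

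Bid (chromosome 6, 120893119 to 120917062), whose product is cut by caspase-8 to link death receptors to mitochondria, was at 74.4 and 76.7 CPM in KO against 67.1 and 66.9 CPM in WT. Both KO libraries were higher, by a small margin. The level in KO was 113% of WT (log2 fold change 0.17, SE 0.06, 95% interval 0.05 to 0.29, edgeR adjusted p = 0.0404). This call was close to the threshold and ended in 8 of 14 alternative settings, among them without KO replicate 1 (0.20, edgeR adjusted p = 0.177) and without KO replicate 2 (0.15, adjusted p = 0.340). Exons of Bid share 628 bases with Bcl2l13 on the opposite strand, and Bcl2l13 was at 67.8 ± 1.81 CPM in KO and 69.8 ± 1.98 CPM in WT (SD, n = 2 each, not called).

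The effectors, which form the pores in the outer membrane, were the most abundant members per length, and Bak1 rose while Bax was not called. Bak1 (chromosome 17, 27019812 to 27028627) was at 258 and 277 CPM in KO against 235 and 218 CPM in WT. Both KO libraries lay above both WT libraries. The level in KO was 118% of WT (log2 fold change 0.24, SE 0.06, 95% interval 0.12 to 0.36, edgeR adjusted p = 0.00710), a call that ended without KO replicate 2 (0.19, edgeR adjusted p = 0.263). Exons of Bak1 share 614 bases with Ggnbp1 on the opposite strand, and the strand setting of the counting is not given in the sources used here. Ggnbp1 itself was at 2.57 ± 0.21 CPM in KO and 4.05 ± 0.16 CPM in WT (SD, n = 2 each), lower where Bak1 was higher. Bax (chromosome 7, 45461695 to 45466903) was at 149.9 and 149.9 CPM in KO against 155 and 167 CPM in WT. Its exons share 192 bases with a transcript of the same strand, Gm45808, not analysed here. The KO libraries were the lower pair, by little (log2 fold change -0.10, SE 0.05, 95% interval -0.22 to 0.02, edgeR adjusted p = 0.205). It was called lower without WT replicate 1 (-0.16, edgeR adjusted p = 0.0159), and was -0.050 without WT replicate 2 (adjusted p = 0.481).

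**Figure D2:**
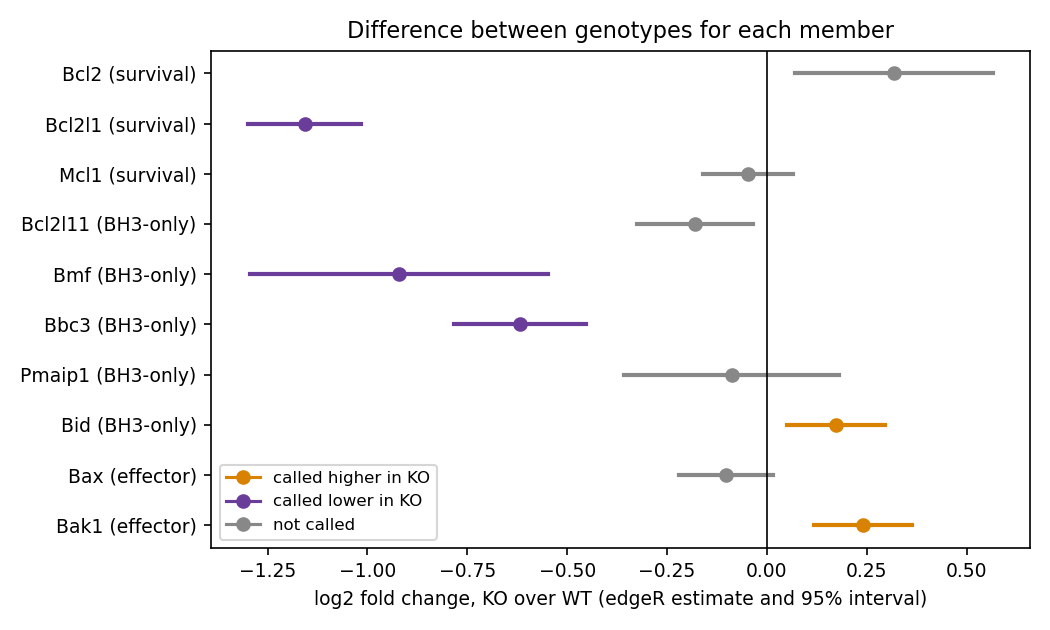
The log2 fold change of each member, KO over WT, with its 95% interval from edgeR; colours mark calls at an adjusted p under 0.05. The interval of Bcl2l1 runs from -1.30 to -1.02 and that of Mcl1 spans 0.

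The members were next set beside each other per length, as CPM per kilobase of the longest annotated coding transcript (GENCODE M21). On this scale the order in KO was Bax (136 ± 0.026), Bak1 (112 ± 5.65), Mcl1 (74.3 ± 2.96), Bid (34.5 ± 0.73), Bcl2l11 (11.9 ± 1.04), Bbc3 (10.8 ± 0.11), Bcl2l1 (10.7 ± 0.026), Pmaip1 (3.44 ± 0.29), Bcl2 (1.82 ± 0.10) and Bmf (0.64 ± 0.029; CPM per kilobase, SD, n = 2). Bbc3 and Bcl2l1 did not differ beyond their spread, with Bcl2l11 just above them. In WT the order was Bax (146 ± 7.88), Bak1 (94.9 ± 4.98), Mcl1 (76.8 ± 0.053), Bid (30.6 ± 0.063), Bcl2l1 (23.9 ± 0.35), Bbc3 (16.5 ± 0.34), Bcl2l11 (13.5 ± 0.40), Pmaip1 (3.66 ± 0.44), Bcl2 (1.46 ± 0.19) and Bmf (1.22 ± 0.088). Bcl2 and Bmf lay close together in WT, by little more than their spread. Bcl2l1 was thus 7th of 10 in KO and 5th in WT. With the median length of coding transcripts in place of the longest, Bbc3, whose annotation holds short transcripts, moved to 5th in KO, ahead of Bcl2l11, and to 4th in WT, ahead of Bid and Bcl2l1, so the order of the middle members depends on the transcript assumed.

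Ratios within a library do not depend on how libraries are scaled to each other. Per kilobase, the ratio of Bcl2l1 to Bcl2 was 6.14 and 5.66 in the KO libraries against 18.2 and 14.9 in the WT libraries. The ratio of Bcl2l1 to Mcl1 was 0.140 and 0.148 in KO against 0.314 and 0.308 in WT. Both ratios were lower in both KO libraries than in either WT library. Of the summed level of the survival members, Bcl2l1 made up 12.1% and 12.6% in KO against 23.6% and 23.2% in WT, Mcl1 made up 86.0% and 85.2% in KO against 75.1% and 75.3% in WT, and Bcl2 made up 1.97% and 2.23% in KO against 1.30% and 1.56% in WT. Mcl1 was thus the bulk of the summed RNA of Bcl2, Bcl2l1 and Mcl1 in every library. Other survival genes were not in this sum. Among them, Bcl2l2, which encodes BCL-W, was at 49.5 ± 13.1 CPM in KO and 48.4 ± 16.6 CPM in WT.

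Of the BH3-only sum, Bid made up 55.5% and 57.1% in KO against 47.1% and 46.4% in WT, and Bbc3 made up 17.5% and 17.7% in KO against 25.7% and 24.7% in WT. With median lengths the share of Bbc3 was 32.1% and 32.7% in KO against 43.6% and 42.4% in WT, and that of Bid 43.9% and 45.4% in KO against 34.3% and 34.2% in WT, so Bbc3 was the larger in WT under that choice. The sum of survival members was 88.9 and 84.8 CPM per kilobase in KO against 102.2 and 101.9 in WT, and that of the BH3-only members was 61.2 and 61.3 in KO against 65.1 and 65.9 in WT. The ratio of survival to BH3-only sums was 1.45 and 1.38 in KO against 1.57 and 1.55 in WT. With median lengths the BH3-only sum was 124 in both KO libraries against 144 in both WT libraries, and the ratio was 1.14 and 1.09 in KO against 1.13 and 1.13 in WT, so it overlapped between genotypes under that choice. The ratio of Bax to Bak1 was 1.26 and 1.17 in KO against 1.43 and 1.66 in WT. These sums and ratios are descriptions, since with 2 libraries a genotype the smallest two-sided p of an exact permutation test is 0.333.

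**Figure D3:**
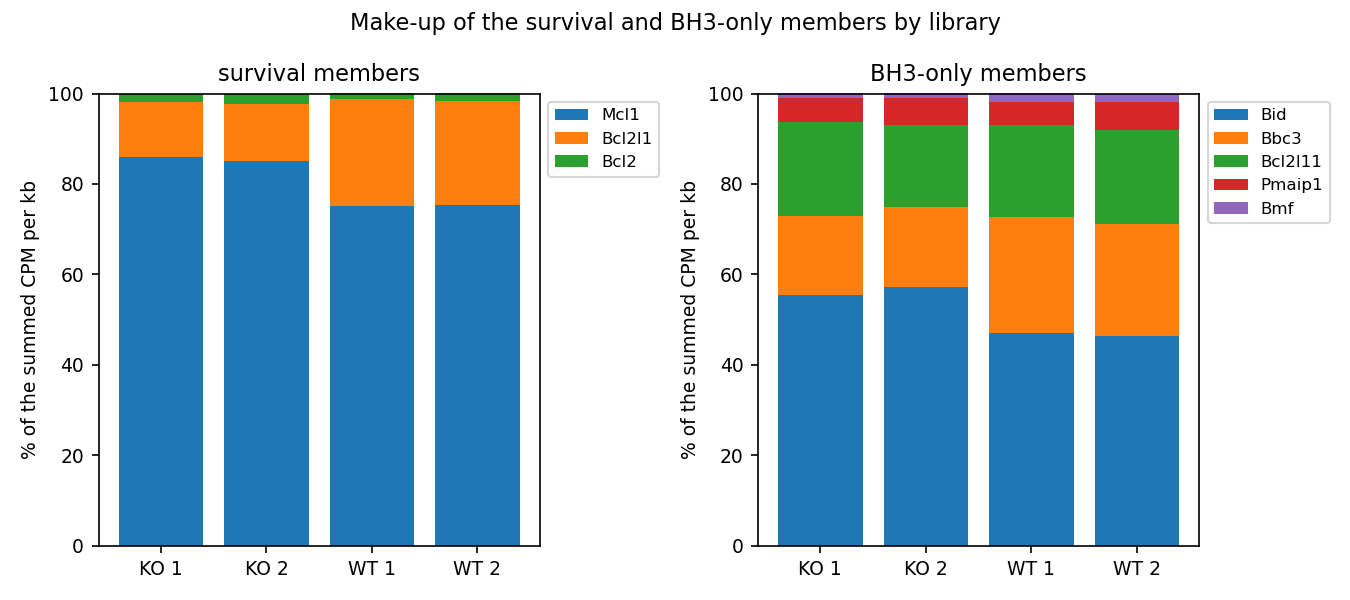
Share of each member in the summed CPM per kilobase (longest coding transcript) of the survival members (left) and the BH3-only members (right), KO libraries left of WT libraries. Bcl2l1 makes up 12.1% and 12.6% of the survival sum in KO and 23.6% and 23.2% in WT.

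Motifs of factors known to act on family members were searched for in the start regions, on both strands. RefSeq start regions were matched for 9 of 10 members, 16 starts in all, and Pmaip1 had none. The FOXO motif GTAAACA was found 227 bases upstream of the Bcl2l11 start and 167 bases upstream of the Bbc3 start printed above. It was in 3.65% of the 32851 promoters of the same length. The last bases of that Bbc3 window were not found in a GENCODE M21 transcript of Bbc3. Those of the Bbc3 window from 16310181 were found, and that window held no FOXO motif. The PU.1 motif GAGGAAGT was found once, 22 bases upstream of the Bak1 start, and in 3.20% of all promoters. The E-box CACGTG bound by MYC proteins was found in 1 region of Bbc3 and in that of Bax, and in 7.15% of all promoters. The STAT motif TTCNNNGAA (8.30% of all promoters) was in 0 of the 16 windows. The p53 response element, with up to 13 bases between its parts, was also in 0 of the 16 windows. Its strict pattern matched only 24 of the 32851 promoters (0.0731%), so its absence cannot show that a member lacks p53 sites. Bcl2l1 and Bmf held none of the motifs searched, and neither did Bcl2, Mcl1 and Bid. No match overlapped another motif. A match describes these letters only.

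Levels of these factors' own genes were read from the same fit. In that fit, 12.6% of all tested genes were called lower and 10.9% higher. Of 21 tested transcription factors known to regulate members, 6 were called lower and 2 higher in KO (median log2 fold change -0.07), against 2 lower and 1 higher without KO replicate 1 and likewise without KO replicate 2. Foxo1, a FOXO factor that induces Bbc3 and Bcl2l11 when growth factor signalling drops, was at 68.3 and 68.9 CPM in KO against 127 and 124 CPM in WT. The KO libraries lay far below WT (log2 fold change -0.87, SE 0.05, edgeR adjusted p = 3.62e-08). Foxo3, named after its value was seen, was at 40.2 and 39.1 CPM in KO against 53.9 and 44.8 CPM in WT. It was called lower (log2 fold change -0.32, edgeR adjusted p = 0.0128), but the WT libraries lay apart by nearly as much as the genotypes did. Foxo4 lay the other way, at 22.02 ± 0.38 CPM in KO and 19.7 ± 0.36 CPM in WT (SD, n = 2 each). Foxo4 was not called (log2 fold change 0.16, edgeR adjusted p = 0.179). Myc fell (34.4 ± 1.09 CPM in KO, 83.0 ± 5.28 CPM in WT) and Nr3c1, the glucocorticoid receptor gene, rose (78.0 ± 2.40 CPM in KO, 56.5 ± 3.87 CPM in WT; log2 fold change 0.47). The STAT5 genes known to support Bcl2l1 in cytokine signalling were not called, with Stat5a at 34.7 ± 1.06 CPM in KO and 36.3 ± 0.060 CPM in WT and Stat5b at 55.1 ± 3.48 CPM in KO and 58.6 ± 1.04 CPM in WT (SD, n = 2 each).

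The 4 members best known as p53 targets did not move as one: Bbc3 fell, Bid rose slightly, and Bax and Pmaip1 were not called. Trp53 was at 399 ± 7.02 CPM in KO and 362 ± 8.85 CPM in WT (SD, n = 2 each, log2 fold change 0.14, edgeR adjusted p = 0.0585). Of 19 other tested p53 targets, 11 were called lower and 1 higher in KO (median log2 fold change -0.29), with 6 lower without KO replicate 2. Of all tested genes, 12.6% were called lower and 10.9% higher. The p53 targets called lower were led by Cdkn1a (-1.41), Trp53inp1 (-0.64) and Phlda3 (-1.02), genes of cell cycle arrest, stress-induced death and AKT inhibition. The p53 target called higher was Plk3 (0.33), a call lost without KO replicate 1, KO replicate 2 or WT replicate 2, and with DESeq2, upper-quartile normalization or library totals.

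A further list held 19 symbols of other BCL2 family genes and of genes for their interaction partners. Of these, 15 were in the files and 11 were tested, of which 3 fell and 1 rose (median log2 fold change -0.04). Of all tested genes, 12.6% were called lower and 10.9% higher. The changes of these 11 were smaller than those of Bcl2l1, Bmf and Bbc3. The number lower was 1 without KO replicate 1, 0 without KO replicate 2 and 5 without WT replicate 1, and the number higher was 0 without KO replicate 2 and 3 without WT replicate 2. Bnip3, a mitochondrial protein gene of hypoxia and mitophagy, fell to 19.7 ± 0.082 CPM in KO, against 26.2 ± 0.91 CPM in WT (log2 fold change -0.41, SE 0.08). Bok, an effector-like gene, fell to 12.2 ± 0.015 CPM in KO, against 15.3 ± 0.48 CPM in WT (-0.32, SE 0.10), and Bnip2 to 72.4 ± 2.52 CPM in KO, against 87.5 ± 4.19 CPM in WT (-0.27, SE 0.06). Bcl2l12 rose to 52.3 ± 3.35 CPM in KO, against 42.2 ± 0.15 CPM in WT (0.31, SE 0.07; SD, n = 2 each). Bad, a BH3-only gene controlled by survival kinases, was at 16.1 ± 1.78 CPM in KO and 16.6 ± 2.93 CPM in WT and was not called. Bcl2a1a and Bcl2a1b, survival genes that are close copies of each other and may share reads, had 1.94 and 0 reads and 4.06 and 4 reads in KO against 6.62 and 5.93 reads and 5.38 and 6.07 reads in WT. They fell below the filter and their values are uncertain, as 3 reads equal 0.150 to 0.155 CPM here.

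**Figure D4:**
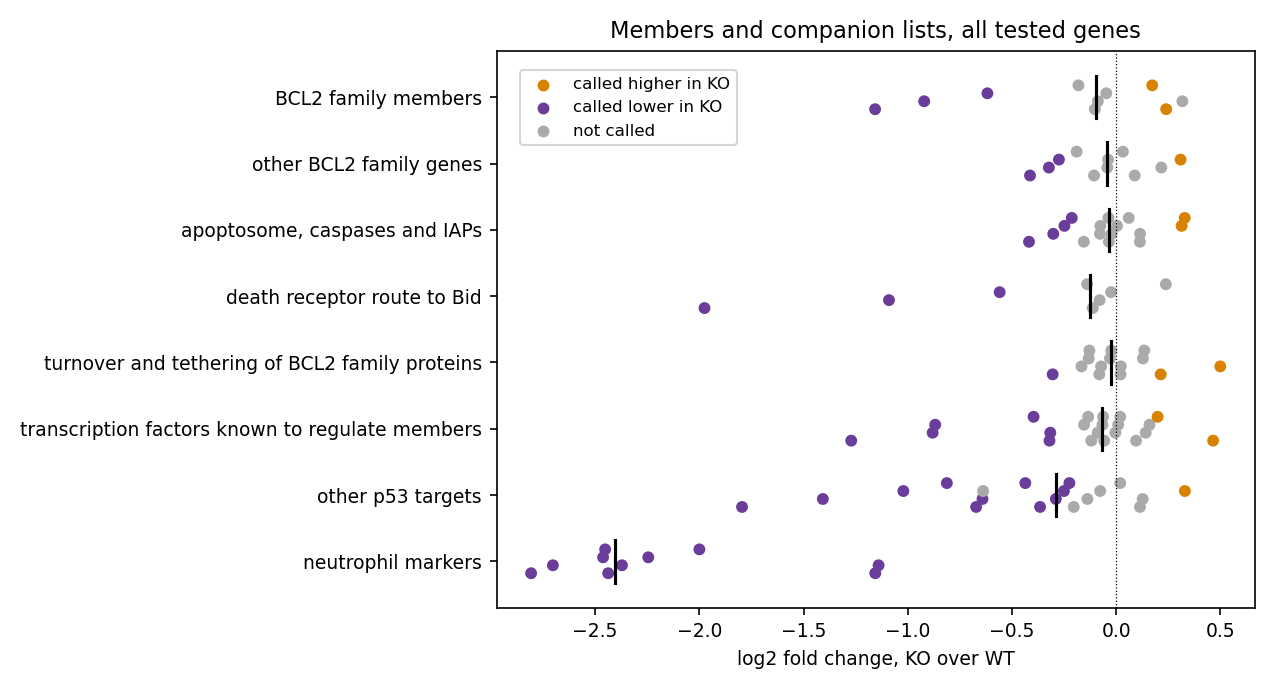
The log2 fold change, KO over WT, of every tested gene of the members and companion lists; black bars are medians. The member median is -0.10 and that of the other p53 targets -0.29, and all 10 neutrophil markers lie below 0.

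Downstream of the mitochondria, 16 genes of the apoptosome, caspases and their inhibitors were tested. Of these, 2 rose and 4 fell (median -0.04), against 10.9% higher and 12.6% lower of all tested genes. These calls were not firm: the number lower was 1 without KO replicate 1 and 0 without KO replicate 2, with DESeq2, with no filter or with an assumed coefficient of variation of 0.1, and the number higher was 1 without KO replicate 1 and 0 without KO replicate 2. Htra2, a mitochondrial protease gene whose product antagonises the inhibitors of apoptosis, rose (116 ± 2.85 CPM in KO, 92.7 ± 0.80 CPM in WT; log2 fold change 0.33). Birc3, an inhibitor of apoptosis gene, fell (29.1 ± 1.08 CPM in KO, 35.9 ± 1.57 CPM in WT; -0.30). The death receptor genes that signal to Bid were low, and 3 of 8 tested genes fell (median -0.13), with 0 called lower without KO replicate 1, with DESeq2 or with the filter of 10 CPM, and 1 with no filter. Tnfrsf10b, the TRAIL receptor gene, was at 6.33 ± 0.54 CPM in KO and 9.33 ± 0.22 CPM in WT (-0.56). Fas had 3 and 8 reads in KO against 21 and 24 reads in WT (-1.98, SE 0.47, edgeR adjusted p = 0.00721), and Tnfrsf1a was at 0.82 ± 0.22 CPM in KO and 1.76 ± 0.21 CPM in WT (-1.09). Fas and Tnfrsf1a are also expressed by myeloid cells, whose markers fell in the same libraries, and the part of those cells was not tested. Casp8, which cuts BID, was at 112 ± 6.07 CPM in KO and 113 ± 9.79 CPM in WT and was not called.

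Of 14 tested genes for turnover and tethering of BCL2 family proteins, 2 rose and 1 fell (median -0.03), with 0 called in either direction without KO replicate 1 or without KO replicate 2 and 2 lower without WT replicate 1. Of all tested genes, 10.9% were called higher and 12.6% lower. The pair of dynein light chain genes was called in opposite directions. Dynll2, whose product tethers BMF, fell to 30.7 ± 0.75 CPM in KO, against 37.9 ± 0.41 CPM in WT. Its log2 fold change was -0.30 (SE 0.07, edgeR adjusted p = 0.00535). Dynll1, whose product tethers BIM, rose to 334 ± 12.8 CPM in KO, against 288 ± 26.2 CPM in WT. Its log2 fold change was 0.21 (SE 0.06, edgeR adjusted p = 0.0233). The WT libraries of Dynll1, at 269 and 306 CPM, lay apart by nearly as much as the genotypes did. Trim17, a ubiquitin ligase gene for MCL-1, rose (7.25 ± 0.48 CPM in KO, 5.13 ± 0.51 CPM in WT; 0.50, SD, n = 2 each).

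**Figure D5:**
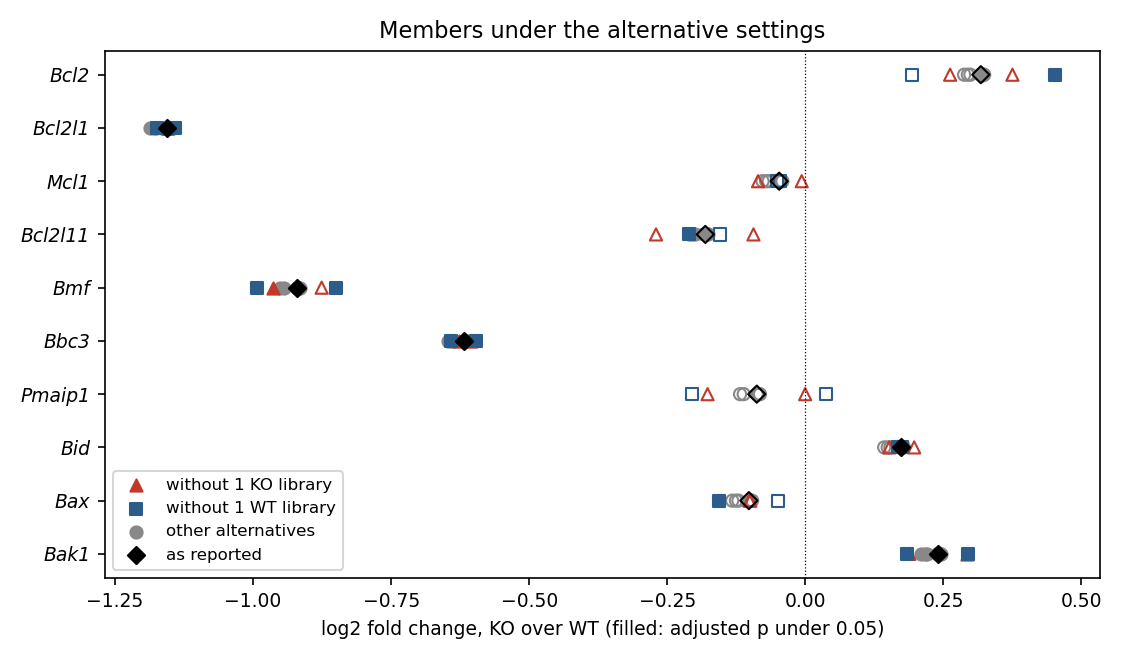
The log2 fold change of each member as reported (diamonds), without 1 KO library (triangles), without 1 WT library (squares) and under the other alternatives (circles); filled symbols have an adjusted p under 0.05. Bcl2l1 and Bbc3 are filled throughout, and Pmaip1 crosses 0.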

How the data were processed

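RNA-seq of 4 libraries was analysed, 2 per genotype, grouped by the genotype in the labels. The deposited files hold estimated counts (expected counts) per gene symbol, 1 file per library, with decimals in 34.4% to 35.5% of the values. Per the submitters' processing notes, the build was GRCm38 and the tools were HISAT2 2.0.4 and DESeq2 1.4.5. Counting tool, annotation and strand setting: not given in the sources used here.

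Counts were rounded and tested with edgeR 4.0.16 (R 4.3.3): TMM, filterByExpr (minimum count 10), quasi-likelihood test, no covariate, and Benjamini-Hochberg adjustment over all 12123 tested genes. SE is the fold change divided by the root of the F statistic. The alternatives used DESeq2 1.42.0, limma 3.58.1 (voom), other scalings and filters, unrounded counts, an assumed coefficient of variation of 0.1, a replicate block and each library left out, a fit that lends the other pair's spread to the lone library. On simulated counts (12090 genes tested), 74% of genes changed 1.25-fold and 96% changed 1.5-fold were recovered, with 12 false among 197 calls. The simulation gave every gene the same coefficient of variation (0.041) and changed only genes above a set level. These shares may therefore not hold for genes of low level or larger spread. Libraries of a genotype differed beyond sampling noise: the chi-square over its degrees of freedom was 2.11 for KO and 5.51 for WT, and 19.4 to 20.8 between genotypes.

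The members, companion lists and marker lists were chosen with earlier results of these data known. Named were all members, Anp32b, Spi1 and Mycn, and in each companion list the 3 called genes of smallest p (the most abundant gene if none was called). All called genes of the list of other BCL2 family genes and their partners were named too. Other named genes were chosen after their values were seen, and some genes the rule selects are not reported here. Positions and start regions are from RefSeq (GRCm38.p6), lengths and exon overlaps from GENCODE M21. Intervals are 95% and cover the spread between these libraries, and limits from 3 reads cover counting error only.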

Additional observations from a re-analysis of the deposited data

How the results depend on the processing

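The falls of Bcl2l1 (log2 fold change -1.19 to -1.14) and Bbc3 (-0.65 to -0.60) were called under all 14 alternatives, and that of Bmf under 12 of the 13 that tested it (the filter of 10 CPM in 2 libraries left Bmf and Pmaip1 untested). The rises were less firm. Bid was not called with DESeq2 (0.18), upper-quartile normalization (0.14), library totals only (0.15), no filter (0.18), the filter of 10 CPM (0.15) or an assumed coefficient of variation of 0.1 (0.17). Bak1 was not called with no filter (0.24) or the assumed variation (0.24). Members called higher then numbered 1 with DESeq2, upper-quartile normalization, library totals or the filter of 10 CPM, and 0 with no filter or the assumed variation. Bcl2l11 was called with upper-quartile normalization (-0.21), library totals (-0.20) and the filter of 10 CPM (-0.20). Leaving out each library in turn gave 0.19 to 0.45 for Bcl2, -0.27 to -0.094 for Bcl2l11, -0.99 to -0.85 for Bmf, -0.21 to 0.037 for Pmaip1, 0.15 to 0.20 for Bid, -0.16 to -0.050 for Bax and 0.18 to 0.30 for Bak1, with 0 to 3 members called higher and 2 to 5 lower, and with 372 to 1676 of all genes higher and 579 to 1712 lower. Over all genes, 680 were higher and 714 lower with DESeq2, 547 and 744 with no filter, and 441 and 915 with the assumed variation, against 1323 and 1533. The cause of these changes was not tested. Replicate numbers are shared between genotypes without a stated pairing, and deviations of same-numbered libraries correlated at 0.054 over 9435 genes. With the replicate number as a block, Bcl2 (0.32, adjusted p = 0.0262) and Bcl2l11 (-0.18, adjusted p = 0.0265) were also called, with 1644 genes higher and 1779 lower. Of the counts of calls for companion and marker lists, 19 were above 0, and 81 of their 266 values under alternatives moved by more than 1.5 times. At 56 to 118 reads, Bmf was the member whose depth limits its precision most.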

Other observations

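Bcl2l2, which encodes the survival protein BCL-W, and its neighbour Pabpn1, a poly(A) binding protein gene, traded reads between replicates of the same genotype. Bcl2l2 was listed at 1145.69 and 779.94 reads in the KO libraries, against 732.15 and 1193.61 reads in the WT libraries. Pabpn1 was listed at 4869.31 and 5236.59 reads in KO, against 5098.44 and 4697.94 reads in WT. The library high in one gene was low in the other in each genotype. Their sum was 6015 and 6016.53 reads in KO, against 5830.59 and 5891.55 reads in WT, so Bcl2l2 took 19.05% and 12.96% of the sum in KO against 12.56% and 20.26% in WT. Neither gene was called by edgeR (Bcl2l2 log2 fold change 0.03, SE 0.18, adjusted p = 0.921, and Pabpn1 0.08, SE 0.06, adjusted p = 0.372). In GENCODE M21 a transcript that spans both loci, Gm20521 on chromosome 14 at 54883441 to 54898137 (GRCm38), shares 594 exon bases with Bcl2l2 and 651 with Pabpn1. How the authors' counting shared reads between these genes is not given in the sources used here, and its part in the values was not tested.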
